A study of Homo sapiens with 12 samples.

Results

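The glycolytic enzymes were followed through 10 genes that span the pathway from the trapping of glucose to the release of lactate, namely HK2, PFKP, ALDOA, TPI1, GAPDH, PGK1, PGAM1, ENO1, PKM and LDHA. They were picked by symbol, and all 10 were found both among the 29890 genes of the table for 5637 cells and among the 58735 genes of the table for 786-O cells. RNA-seq had been run on 12 libraries of these 2 human cancer lines, 3 with CBX7 silenced (shCBX7) and 3 controls (sh control) per line. 5637 is a bladder cancer line and 786-O a clear cell renal carcinoma line, each grown in RPMI-1640 with serum. The CBX7 protein is one of the chromobox readers within Polycomb repressive complex 1 and helps to keep genes silent. The labels name no drug, no time after silencing, no sequence of the silencing agent and no clone. The titles mark the arms with sh, while the column headers of the deposited tables mark the silenced arm with si, so whether a hairpin or a small interfering RNA was used is not settled here. The labels also do not state whether replicates were grown as separate cultures, so p-values reflect only the scatter of these libraries, perhaps technical scatter alone.

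Glycolysis converts glucose to pyruvate in the cytosol, with a small gain of ATP and NADH. Hexokinase and phosphofructokinase invest ATP, aldolase and triose phosphate isomerase yield the triose phosphates, and the lower steps return ATP and NADH before lactate dehydrogenase turns pyruvate into lactate. Many tumours run the pathway fast even with oxygen present. In clear cell renal carcinoma the loss of VHL commonly stabilises hypoxia-inducible factors, which can switch on many of these genes. 786-O is known to lack functional VHL, but whether such factors drive these genes there was not tested.

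The values are FPKM, read fragments scaled to gene length and to library depth, as the authors deposited them in a separate table for each line. Reads recovered from them came to 17608641 to 28980188 per library in listed genes of 5637 and 16384151 to 18868874 in 786-O. The 5637 sums cover only the 93.9% of genes with recovered reads and leave out ACTB, PGK1 and ENO1, while those of 786-O cover all genes. CBX7 measured 2.19, 2.17 and 2.42 FPKM in the 5637 controls and 1.86, 1.80 and 1.97 after silencing (limma log2 change -0.18, adjusted p = 0.0188). In 786-O CBX7 measured 1.63, 1.75 and 1.49 FPKM against 1.01, 0.892 and 1.07 (limma log2 change -0.40, adjusted p = 0.00364). Of 18 urothelial and other epithelial markers, 13 reached 1 FPKM in both arms of 5637, but none of the 4 uroplakins listed did. Of 12 renal markers, 6 reached 1 FPKM in 786-O controls, PAX8 and LHX1 among them, and 4 did so after silencing. The lists did not part the lines fully. CA9 was the 1 renal marker to reach 1 FPKM in 5637, and it did not in 786-O. Of the 18 epithelial markers, 4 reached it in 786-O controls (KRT7, KRT18, KRT19 and PPARG) and 5 after silencing. Of 11 stromal and endothelial markers, 1 reached it in each line, COL1A1 in 5637 and LUM in 786-O. Leukocyte and blood markers summed to at most 1.74 FPKM in any library.

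The pathway was strongly expressed in both lines, and its members differed widely in level per length. In 5637 controls the summed FPKM of the 10 genes was 0.733% to 0.759% of all FPKM of a library, and after silencing 0.765% to 0.811%. In 786-O it was 1.80% to 1.86% in controls and 1.51% to 1.62% after silencing. The ranges of the arms lay apart in both lines, upward in 5637 and downward in 786-O. Because the tables were made separately, levels were not tested between lines.

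GAPDH had the highest level of the 10 and ENO1 came next in every arm of both lines, and HK2 and ALDOA were the lowest pair. In 5637 controls the order below ENO1 was PKM at 166 ± 1 FPKM (SD, n = 3), PGK1 at 142 ± 1, LDHA at 141 ± 3, TPI1 at 127 ± 4, PGAM1 at 79.6 ± 1.1, PFKP at 54.3 ± 0.8, HK2 at 24.2 ± 0.6 and ALDOA at 4.62 ± 0.36. PGK1 and LDHA were the one pair of neighbours whose libraries overlapped. In 786-O controls TPI1 at 780 ± 39 FPKM and PKM at 757 ± 47 overlapped, and below them came PGAM1 at 480 ± 18, LDHA at 382 ± 2, PFKP at 234 ± 11, PGK1 at 205 ± 5, HK2 at 13.5 ± 0.2 and ALDOA at 8.41 ± 1.11. TPI1 and PGAM1 thus ranked above LDHA in 786-O and below it in 5637.

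**Figure D1:**
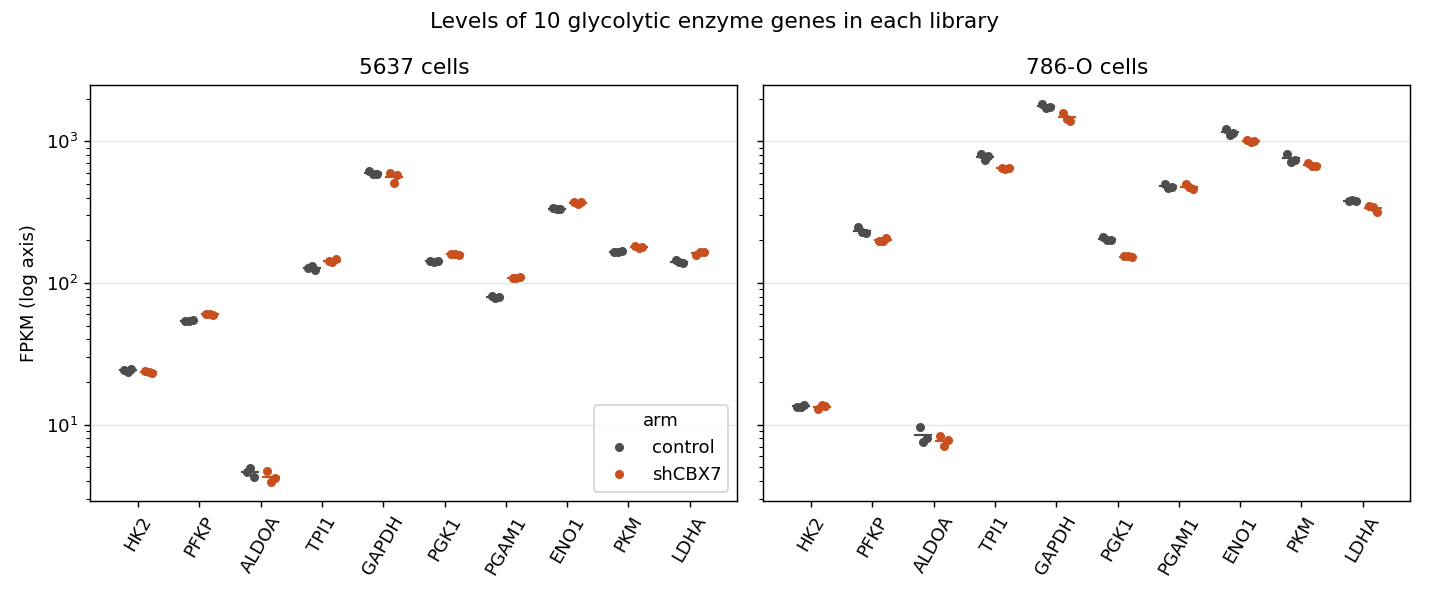
FPKM (log axis) of the 10 glycolytic enzyme genes in each library of 5637 (left) and 786-O (right). Points are single libraries, 3 per arm, and short lines are arm means. GAPDH and ENO1 are highest and HK2 and ALDOA lowest in both panels, and most shCBX7 points lie above the control points in 5637 and below them in 786-O.

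In 5637 cells 7 of the 10 genes were higher after silencing of CBX7 and none was lower, by a limma test on log2(FPKM + 1) with a Benjamini-Hochberg adjusted p under 0.05. Over all 12689 genes tested, 24.4% were called higher and 20.2% lower, 44.5% in all. The median log2 change was 0.15 over the 10 genes and 0.01 over all genes, whose median size of change in either direction was 0.10. The rises were modest, from 1.08-fold for PKM to 1.36-fold for PGAM1. The same 7 genes had arms that did not overlap, against 30.7% of all genes with all 3 silenced libraries above all controls. They were also called whichever single library was left out. By an exact two-sided permutation test on FPKM each of them had p = 0.1, the smallest that 3 against 3 libraries allow. In bulk RNA, a change in the mix of cells and a change of RNA per cell cannot be told apart.

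PGAM1 rose most. It encodes the mutase that shifts the phosphate group on phosphoglycerate, and it lies on chromosome 10 from 97426160 to 97433441 (plus strand, GRCh38). Its levels in 5637 were 80.6, 78.5 and 79.9 FPKM in controls and 109, 108 and 109 after silencing. The arms were far apart and the libraries of each arm nearly equal. The log2 change was 0.44 ± 0.02 (SE, n = 3 per arm, limma adjusted p = 2.02e-05), and 98.7% of all tested genes had a lower value of the change.

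LDHA came next among the members. It encodes the subunit of lactate dehydrogenase that favours the reduction of pyruvate to lactate, and lies on chromosome 11 from 18394388 to 18408425 (plus strand). Controls held 145, 139.6 and 139 FPKM and silenced libraries 158, 166 and 166. All silenced libraries were above all controls, with the first silenced library nearest to them. The log2 change was 0.21 ± 0.03 (SE, n = 3 per arm, limma adjusted p = 0.00130).

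TPI1 and PGK1 rose by about the same amount. TPI1, the triose phosphate isomerase on chromosome 12 from 6867119 to 6870948 (plus strand), measured 128, 131 and 123 FPKM in controls and 142, 141 and 147 after silencing. PGK1, the kinase of the first ATP-yielding step, lies on chromosome X from 77910739 to 78129296 (plus strand) and measured 143, 141 and 142.5 FPKM against 160.2, 161 and 158. Neither gene's arms overlapped. Their log2 changes were 0.17 ± 0.03 for TPI1 and 0.17 ± 0.02 for PGK1 (SE, n = 3 per arm, limma adjusted p = 0.00329 and 5.10e-04).

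PFKP, ENO1 and PKM had the smallest rises that passed the test. PFKP encodes the platelet-type phosphofructokinase of the committed step (chromosome 10, 3066333 to 3137712, plus strand) and went from 53.8, 53.8 and 55.2 FPKM to 60.8, 60.4 and 59.6. ENO1, the enolase that makes phosphoenolpyruvate (chromosome 1, 8861000 to 8879250, minus strand), went from 336, 333 and 331 FPKM to 375, 359.6 and 372. Both pairs of arms lay apart. PKM, the pyruvate kinase gene whose alternative splicing gives the M1 and M2 forms, lies on chromosome 15 from 72199029 to 72231822 (minus strand) and went from 165, 165 and 168 FPKM to 183, 176 and 179.9. Gene-level FPKM do not separate those 2 forms. The log2 changes were 0.15 ± 0.02 for PFKP, 0.15 ± 0.02 for ENO1 and 0.11 ± 0.02 for PKM (SE, n = 3 per arm), with limma adjusted p = 0.00104, 0.00239 and 0.00504.

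HK2, ALDOA and GAPDH did not pass the test in 5637, and their arms overlapped. HK2, the hexokinase that is often induced in tumours (chromosome 2, 74833981 to 74893359, plus strand), measured 24.3, 23.6 and 24.7 FPKM in controls and 23.9, 23.4 and 23.0 after silencing. Its limma log2 change of -0.04 had a 95% interval from -0.10 to 0.02. GAPDH, which oxidises glyceraldehyde phosphate and lies on chromosome 12 from 6533927 to 6538374 (plus strand), measured 618, 585 and 585 FPKM against 597, 505 and 576. The second silenced library was the lowest of the 6. GAPDH had a log2 change of -0.10 (95% interval -0.24 to 0.05), and without that library it was -0.02. ALDOA, the aldolase of muscle and many other tissues (chromosome 16, 30064164 to 30070457, plus strand), measured 4.63, 4.98 and 4.26 FPKM against 4.73, 3.95 and 4.18, a log2 change of -0.09 (95% interval -0.25 to 0.07). That value was -0.04 without the second control or the second silenced library, and -0.14 and -0.15 without the third control or the first silenced library, with no call in any of these fits.

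In 786-O cells 6 of the 10 genes were lower after silencing and none was higher, again by limma with an adjusted p under 0.05. Over all 13220 genes tested, 26.2% were called lower and 24.7% higher, 51% in all. The median log2 change was -0.19 over the 10 genes and -0.01 over all genes, whose median size of change in either direction was 0.24. PGK1, TPI1 and GAPDH changed by more than that middle size and the other members by less. Arms that did not overlap, with silenced libraries below controls, were seen for 7 of the 10 genes and 31% of all genes. For each of these 7 members the exact two-sided permutation p on FPKM was 0.1, the smallest possible with 3 against 3 libraries. With quantile normalization 5 of 10 were called lower, the members' median was -0.10, and LDHA lost its call. With no filter on low values 3 of 10 were called, and GAPDH, ENO1 and LDHA lost theirs.

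PGK1 fell most in 786-O. It measured 210.5, 201 and 202 FPKM in controls and 155, 154 and 151 after silencing, 0.751 times the control mean. The 3 silenced libraries were close together and well below the lowest control. The log2 change was -0.41 ± 0.04 (SE, n = 3 per arm, limma adjusted p = 1.43e-04). Between 14178 and 20282 reads lay behind each PGK1 value.

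TPI1 and GAPDH, the neighbouring steps above PGK1, also fell. TPI1 measured 813, 737 and 790.4 FPKM in controls and 651, 638 and 649 after silencing (log2 change -0.27 ± 0.05, SE, n = 3 per arm, limma adjusted p = 0.00290), and with quantile normalization its change was -0.12. GAPDH measured 1839, 1712 and 1749 FPKM against 1583, 1445 and 1395 (log2 change -0.26 ± 0.06, SE, n = 3 per arm, limma adjusted p = 0.00851). For both genes every silenced library was below every control. Copies of TPI1 annotated as pseudogenes summed to 29.9 to 34.8 FPKM in controls and 25.7 to 30.6 after silencing, or 4.20% of TPI1 in controls. The 62 listed GAPDH copies summed to 26.5 to 29.7 and 22.5 to 24.7 FPKM, or 1.61% of GAPDH. Reads of near-identical copies may have been split between them by the authors' counting, so these values of TPI1 and GAPDH carry that uncertainty.

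PFKP, ENO1 and LDHA fell by similar amounts. PFKP measured 247, 228 and 227 FPKM in controls and 199, 199 and 208 after silencing. ENO1 measured 1222, 1112 and 1146 FPKM against 1021, 993 and 998. LDHA measured 381, 384 and 379.8 FPKM against 349.9, 345 and 319, with the third silenced library lowest. Their arms lay apart. The log2 changes were -0.21 ± 0.05 for PFKP, -0.21 ± 0.05 for ENO1 and -0.18 ± 0.05 for LDHA (SE, n = 3 per arm), with limma adjusted p = 0.00865, 0.01002 and 0.0180. LDHA lost its call without the third control library (adjusted p = 0.0596) or without the third silenced library (adjusted p = 0.0582), and the change of ENO1 was -0.37 with quantile normalization.

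PKM, PGAM1, HK2 and ALDOA did not pass the test in 786-O. PKM measured 809, 718 and 743 FPKM in controls and 708, 664 and 672 after silencing, so its arms did not overlap, but its log2 change of -0.15 had an adjusted p = 0.0606 (limma), and with quantile normalization the change was 0.02. It passed without the second control library (-0.19, adjusted p = 0.0402), in a voom fit on recovered reads (-0.14, adjusted p = 0.00356) and on a fixed-sum scale (-0.16, adjusted p = 0.0260). PGAM1, the member that rose most in 5637, measured 500.4, 466 and 473 FPKM against 499, 474 and 457, a log2 change of -0.01 (95% interval -0.13 to 0.11). HK2 measured 13.4, 13.4 and 13.8 FPKM against 12.9, 13.7 and 13.5, with a log2 change of -0.02 (95% interval -0.12 to 0.09). The signs of the HK2 and PGAM1 changes turned with quantile normalization, and the arms of both overlapped.

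ALDOA was low in both tables, which sets it apart from the enzymes of the steps beside it. In 786-O it measured 9.65, 7.51 and 8.08 FPKM in controls and 8.33, 7.08 and 7.77 after silencing, from 462 to 631 reads per library. Its log2 change there was -0.11 (95% interval -0.33 to 0.12), and it ran from -0.18 to -0.01 as single libraries were left out, nearest to 0 without the first control. In the GENCODE 29 annotation 42.3% of its exon bases are shared on the same strand with the gene AC093512.2 (0.583 to 1.30 FPKM in 786-O), and 13.3% lie opposite AC093512.1, which is listed at 0. GAPDH shares 14.2% of its exon bases with AC006064.4 on the opposite strand, also listed at 0, and the other members share at most 2.5% with any gene on the same strand. Reads in shared bases may have been left out or split, depending on the counting, which is not given in the sources used here. Levels of ALDOA are therefore uncertain, and a fall or rise of it was not called in either line.

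**Figure D2:**
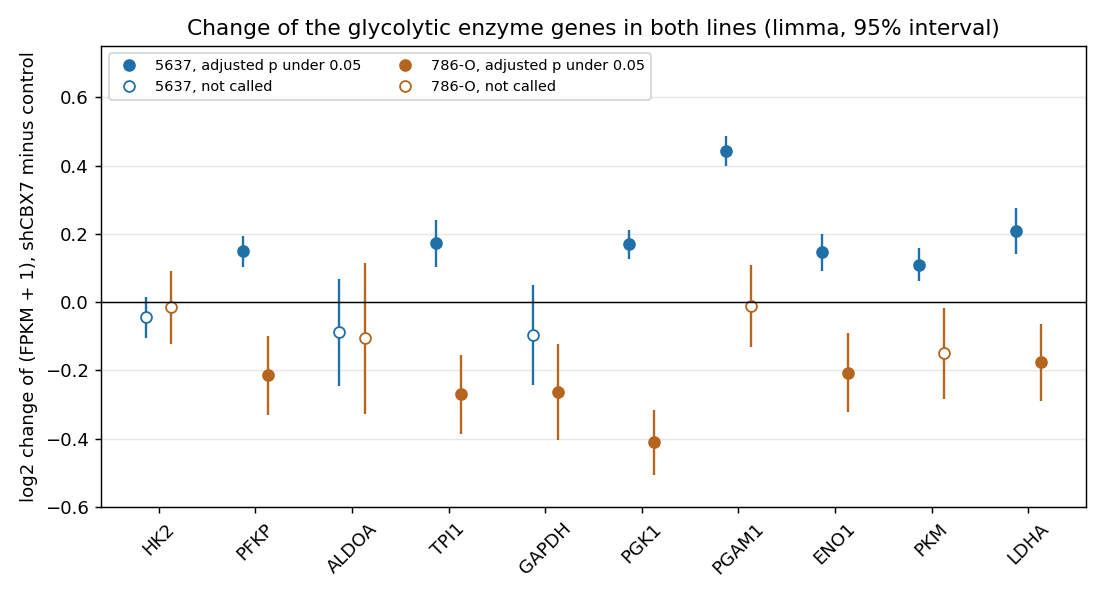
Log2 change of (FPKM + 1), shCBX7 minus control, of each glycolytic enzyme gene in 5637 and 786-O, in pathway order from HK2 to LDHA. Bars are 95% intervals from limma (3 libraries per arm) and filled points have an adjusted p under 0.05. PGAM1 has the largest rise in 5637 (0.44) and PGK1 the largest fall in 786-O (-0.41), and the intervals of HK2 and ALDOA include 0 in both lines.

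The change after silencing differed between the lines for 7 of the 10 genes, by limma on all 12 libraries (line by arm interaction, adjusted p under 0.05). In each of the 7 the change was lower in 786-O. Over the 12777 genes tested, 53.3% differed and 29% had the lower change in 786-O. The difference was -0.58 ± 0.04 for PGK1 (SE, adjusted p = 2.54e-07), -0.45 ± 0.05 for PGAM1 (adjusted p = 2.04e-05) and -0.44 ± 0.05 for TPI1 (adjusted p = 3.67e-05) on the log2 scale. For LDHA, PFKP, ENO1 and PKM it lay between -0.38 and -0.26 (limma adjusted p from 9.38e-05 to 0.00298). In PGK1, TPI1, PFKP, ENO1 and LDHA a called rise in 5637 met a called fall in 786-O. That pairing of calls was found in 5 of 10 members and in 779 of 10354 genes tested in both lines (7.52%).

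HK2, ALDOA and GAPDH did not pass this test. The difference was 0.03 (95% interval -0.07 to 0.13) for HK2 and -0.02 (95% interval -0.29 to 0.25) for ALDOA, and these signs turned under some alternatives. For GAPDH it was -0.17 (95% interval -0.36 to 0.03, limma adjusted p = 0.135). Without the second silenced library of 5637, the one with the low GAPDH value, it was -0.24 (adjusted p = 0.0194) and GAPDH joined the genes that differed.

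Several steps are served by more than one gene, and the share of a step's summed FPKM carried by each member was compared within libraries. Since FPKM is per length, genes of a step can be added. In 786-O the share of PFKP among the phosphofructokinases was 87.7%, 88.4% and 87.4% in controls and 82.9%, 83.2% and 83.0% after silencing. The share of HK2 among the hexokinases was 21.6%, 21.4% and 21.5% in controls and 17.5%, 17.7% and 17.1% after silencing. Both shares were lower in every silenced library. The liver-type PFKL was higher (log2 change 0.61, limma adjusted p = 2.98e-04), as were HKDC1 (0.63, adjusted p = 2.77e-04) and the widely expressed HK1 (0.24, adjusted p = 0.00307), while the muscle-type PFKM was lower (-0.33, adjusted p = 0.00123).

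In 5637 the share that moved most was that of ENO1. It was 89.6%, 89.5% and 89.8% of enolase FPKM in controls and 92.5%, 92.3% and 92.8% after silencing, and the neuronal enolase ENO2 was lower (log2 change -0.37, limma adjusted p = 1.03e-04). HK2 made up 39.0%, 38.6% and 39.8% of hexokinase FPKM against 37.7%, 37.6% and 37.4%. In 786-O the ENO1 share was 97.9% ± 0.03 in controls and 97.4% ± 0.03 after silencing, and the LDHA share was 96.6% ± 0.07 and 97.3% ± 0.4 (SD, n = 3). Arms did not overlap in any of these cases. The shares of PFKP and LDHA in 5637 and of ALDOA in both lines overlapped. PGAM1 made up the whole of the PGAM1 and PGAM2 sum throughout. PGAM2 had 0 reads in every library, so this share could not move, though it is counted among the comparisons. PGAM4, at 2.19 to 3.64 FPKM in 786-O controls, was not in that sum. In each of the 6 cases without overlap the exact two-sided permutation p was 0.1, the smallest that 3 against 3 libraries allow, and 0.2 after adjustment over 12 comparisons, so none can pass a threshold of 0.05.

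**Figure D3:**
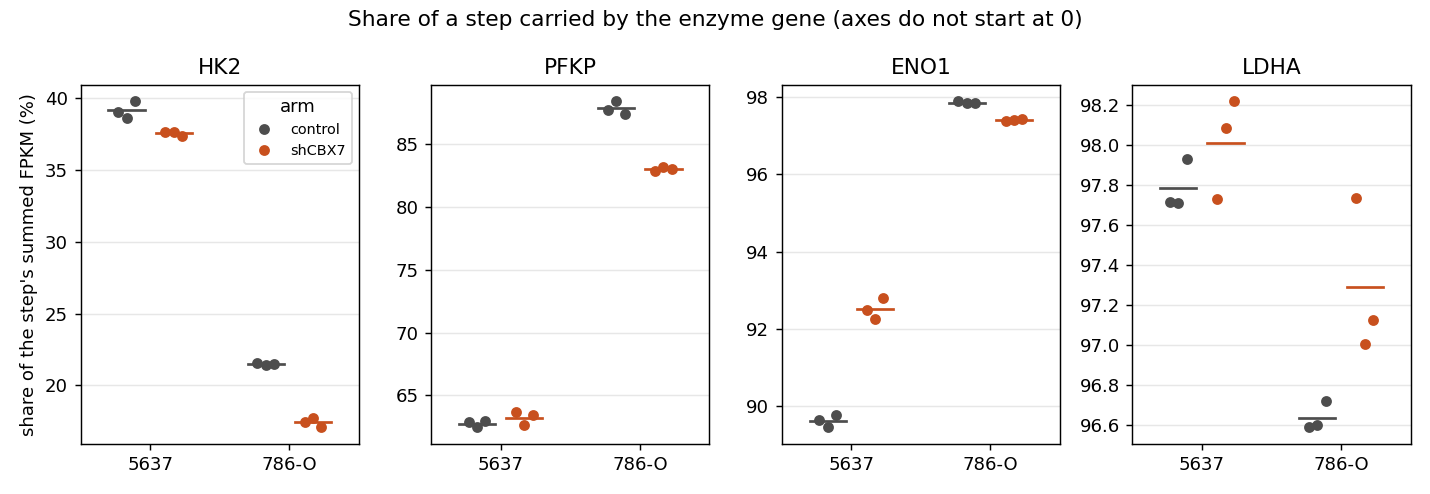
Share of the summed FPKM of a step (%) carried by HK2, PFKP, ENO1 and LDHA in control and shCBX7 libraries of 5637 and 786-O. Points are libraries, 3 per arm, lines are means, and each panel has an axis of its own that does not start at 0. In 786-O the PFKP share goes from 87.8% to 83.0% and the HK2 share from 21.5% to 17.4%, and in 5637 the ENO1 share goes from 89.6% to 92.5%.

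Genes around the pathway moved in both directions. Over all genes tested, 24.4% were called higher and 20.2% lower in 5637, and 24.7% higher and 26.2% lower in 786-O. Counts of the lists below are to be read beside these shares. The list of 20 other enzymes of the pathway held GPI and isoenzymes, some of them known from testis or liver. Of these, 8 were tested in 5637 (2 higher, 1 lower) and 10 in 786-O (3 higher, 2 lower). Among 17 transporters of glucose and lactate, 3 were higher and 4 lower of 14 tested in 5637, and 3 higher and 4 lower of 11 tested in 786-O. The median log2 change of the transporters was 0.00 in 5637 and -0.11 in 786-O. In 786-O the glucose transporter SLC2A1 (GLUT1) measured 326, 273 and 297 FPKM in controls and 184, 171 and 175 after silencing (limma log2 change -0.75, adjusted p = 1.05e-04). SLC2A3 (GLUT3) went the other way, from 8.08, 8.59 and 9.31 FPKM to 22.6, 21.6 and 21.1 (limma log2 change 1.24, adjusted p = 6.09e-06). The lactate carrier SLC16A1 (MCT1) was lower (-0.39, adjusted p = 0.00125) and SLC2A12 higher (0.44, adjusted p = 0.00155). In 5637 the log2 changes were 0.57 for SLC2A6 (adjusted p = 3.71e-05), 0.18 for the lactate exporter SLC16A3 (MCT4, adjusted p = 3.19e-04), 0.20 for SLC2A10 (adjusted p = 0.0106) and -0.10 for SLC2A1 (adjusted p = 0.00854).

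Most tested genes of the pentose phosphate pathway, which makes NADPH and ribose phosphate from glucose, were called lower in 786-O. Of 8 tested genes 6 were lower and 1 higher (26.2% and 24.7% of all genes), with a median log2 change of -0.41 against -0.01 over all genes. PGD, an NADPH-making enzyme, changed by -0.68 (adjusted p = 2.86e-05), RPIA by -0.54 (adjusted p = 5.04e-05) and H6PD by -0.48 (adjusted p = 3.74e-04). In 5637 the list gave 1 higher and 1 lower of 8 (24.4% and 20.2% of all genes), with a median of -0.00. RPIA, which makes ribose phosphate, was higher there (0.48, adjusted p = 3.30e-04) and TKT lower (-0.18, adjusted p = 4.02e-04), both by limma.

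Among 7 genes for the entry of pyruvate into mitochondria, 3 were called lower in 786-O and none higher. Of all genes 26.2% were called lower there and 24.7% higher, and a count over 7 genes says little beside these shares. The median log2 change of the 7 was -0.11, against -0.01 over all genes. The 3 genes called lower were DLAT, a subunit of pyruvate dehydrogenase (limma log2 change -0.93, adjusted p = 1.15e-05), MPC2 of the pyruvate carrier (-0.58, adjusted p = 8.73e-05) and PDHB (-0.22, adjusted p = 0.0186). In 5637, 3 were higher and 1 lower of 7 (24.4% and 20.2% of all genes), namely DLD (0.25), PDHA1 (0.16), DLAT (0.14) and MPC2 (-0.18). Among the kinases and phosphatases that set phosphofructokinase and pyruvate dehydrogenase activity, 1 was higher and 3 lower of 10 in 5637, and 3 were higher and 3 lower of 10 in 786-O. PDP1, a phosphatase that activates pyruvate dehydrogenase, changed by -0.25 in 5637 (adjusted p = 1.42e-04) and by 0.74 in 786-O (adjusted p = 4.78e-04). In 786-O PFKFB3, which makes an activator of phosphofructokinase, was higher (0.30, adjusted p = 0.00352) and PDK3 lower (-0.48, adjusted p = 9.10e-04).

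Gluconeogenesis, glycogen and side branches had no single direction. Of 3 tested genes of gluconeogenesis, PCK2 and G6PC3 were higher in 5637 (log2 change 0.33 and 0.27), and in 786-O PCK2 was higher (0.34) and PC lower (-0.35). The glycogen and side branch list gave 6 higher and 3 lower of 13 in 5637 (24.4% and 20.2% of all genes). It was led by the glycogen synthase GYS1 (0.44, adjusted p = 6.00e-05). In 786-O this list gave 2 higher and 5 lower of 13 (24.7% and 26.2% of all genes). There the glycogen phosphorylase PYGL changed by -0.72 (adjusted p = 3.00e-05). GPD2 of the glycerol phosphate shuttle changed by -0.999 (adjusted p = 3.72e-05) and BPGM by 0.70 (adjusted p = 2.17e-04). All of these are limma values.

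**Figure D4:**
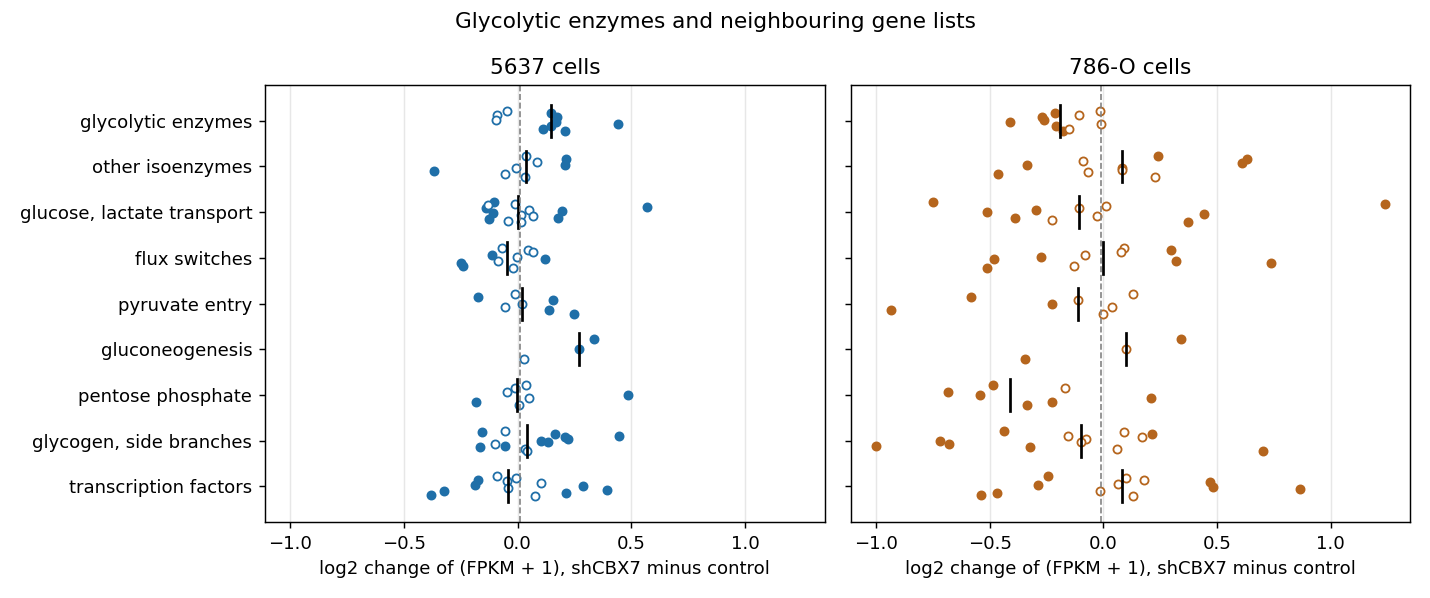
Log2 change of (FPKM + 1), shCBX7 minus control, of the tested genes of 9 lists in 5637 (left) and 786-O (right). Each point is a gene, filled where the limma adjusted p was under 0.05, black bars are list medians and the dashed line is the median of all tested genes. The glycolytic enzymes have a median of 0.15 in 5637 and -0.19 in 786-O, and the pentose phosphate list has a median of -0.41 in 786-O. Of the genes tested, 1 is not drawn.

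Transcription factors and oxygen sensors that are known to control glycolytic genes moved both ways. In 5637, 3 were higher and 4 lower of 13 (24.4% and 20.2% of all genes). In 786-O, 3 were higher and 4 lower of 12 (24.7% and 26.2% of all genes). MYC was higher in both lines, at 79.9, 78.4 and 78.9 FPKM against 97.5, 96.9 and 96.0 in 5637 (limma log2 change 0.29, adjusted p = 7.80e-05) and at 52.2, 49.0 and 50.7 FPKM against 73.5, 69.1 and 70.5 in 786-O (0.48, adjusted p = 1.21e-04). Its partner MAX was higher in 786-O (0.86, adjusted p = 1.61e-05), and SP1 was lower in both lines (-0.32 and -0.47). HIF1A and EPAS1, the hypoxia-inducible factor subunits, were looked at after their values were seen. HIF1A changed by -0.25 in 786-O (adjusted p = 0.00422) and by -0.09 in 5637 (adjusted p = 0.106), and EPAS1 changed by 0.10 (adjusted p = 0.131) and -0.01 (adjusted p = 0.831), all by limma. RNA levels of these subunits say nothing of their protein levels, which were not measured.

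Promoter windows from RefSeq (GRCh38.p14), 250 bases before to 50 after a start site, were available for all 10 members, 18 windows in all. They were searched on both strands for ACGTG or GCGTG, the core of the hypoxia response element, and for CACGTG, the E-box bound by MYC and MAX, which contains ACGTG. The hypoxia core was found in 14 of the 18 windows, against 48.4% of all 34943 windows, and CACGTG in 4 of 18 against 7.20%. By gene the core occurred in 9 of 10 members, some of which have several windows. No share per gene was taken over all genes. The member windows were richer in G and C, with a median of 70.4% against 58.7%, and in CG steps, with a median of 31.5 against 14, and the part of this composition in the share of matches was not tested. PGAM1 had neither motif in its window, whose start site lies 1658 bases inside the annotated gene. All member windows had start sites inside the annotated gene, from 115 bases for the first ALDOA window to 193509 for PGK1. PGK1, LDHA and ENO1, which rose in 5637 and fell in 786-O, are shown by the 250 bases before the start site, with each match of ACGTG or GCGTG on either strand in capitals. They lie at chrX:78103998-78104247 (plus strand), chr11:18394313-18394562 (plus strand, the first of 2 LDHA windows) and chr1:8878687-8878936 (minus strand).
PGK1: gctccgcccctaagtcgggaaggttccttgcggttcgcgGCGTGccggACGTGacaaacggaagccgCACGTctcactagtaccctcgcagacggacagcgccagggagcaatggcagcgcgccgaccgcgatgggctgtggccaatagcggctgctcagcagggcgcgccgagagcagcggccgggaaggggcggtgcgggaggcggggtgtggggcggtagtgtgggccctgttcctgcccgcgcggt
LDHA: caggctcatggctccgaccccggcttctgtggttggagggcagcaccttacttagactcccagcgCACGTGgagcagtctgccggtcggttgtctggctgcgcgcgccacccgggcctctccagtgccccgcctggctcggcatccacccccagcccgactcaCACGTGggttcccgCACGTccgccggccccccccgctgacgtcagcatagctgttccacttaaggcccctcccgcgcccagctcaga
ENO1: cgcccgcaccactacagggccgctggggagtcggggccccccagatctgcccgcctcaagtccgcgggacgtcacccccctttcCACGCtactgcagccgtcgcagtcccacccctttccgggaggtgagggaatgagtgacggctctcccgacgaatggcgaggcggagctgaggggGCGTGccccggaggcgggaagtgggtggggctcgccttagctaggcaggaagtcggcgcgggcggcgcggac
These stretches hold 3 matches for PGK1, 5 for LDHA and 2 for ENO1, and 2 sites of CACGTG, both in LDHA. Each CACGTG counts as 2 matches, since it holds ACGTG on both strands, so LDHA has fewer separate runs of capitals than matches. The second LDHA window, not shown, held 1 match in its 250 bases. TPI1 and PFKP also rose in 5637 and fell in 786-O and are not shown. In the same stretch the TPI1 windows held 0 and 2 matches and the PFKP windows 0, 0, 1 and 3. A match is a description of the letters and no evidence that a factor binds there.

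The genes whose pair of changes lay nearest to the members' pair of medians were sought among 1452 other genes. They were SNRPB2 (0.14 in 5637 and -0.20 in 786-O), CCT6A (0.14 and -0.20), SRI (0.17 and -0.19), MOB1A (0.13 and -0.18) and P3H4 (0.18 and -0.20). SNRPB2 encodes a spliceosome protein and CCT6A a subunit of the cytosolic chaperonin. Likeness was the straight-line distance between pairs of limma log2 changes in the 2 lines, for genes averaging 20 FPKM or more in both, and it was 0.0111 for SNRPB2 and 0.0359 for P3H4.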

How the data were processed

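RNA-seq measured 12 libraries (5637 and 786-O, with 3 per arm), which were grouped by their titles, line and genotype. For 2 controls of 5637 the title carries another number beside a 5637 cell line label, and control columns of 5637 could be tied to the group only. Per the file headers, the authors deposited FPKM per gene and library, 1 table per line. The library kit marks strand, per the labels' protocols. The aligner, the counter and the strand setting were not given in the sources used here. The submitters' processing notes name mm10, a mouse build, although all 58735 genes of 786-O match GENCODE 29 (GRCh38) in position, which gave the coordinates. No pair of libraries within a line was identical.

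From these values, log2(FPKM + 1) of genes averaging 0.5 FPKM or more was tested with limma 3.58.1 (R 4.3.3, mean-variance trend), shCBX7 minus control, two-sided, with Benjamini-Hochberg adjustment over all genes and calls under 0.05. This scale understates the change of low genes. Isoenzyme shares, the FPKM of the members and ratios to reference genes were tested by exact permutation (scipy 1.17.1). Low FPKM values are whole multiples of 1 read (tolerance 0.01), which gave reads for every gene in 786-O and 93.9% in 5637, where lengths came from the other table. Reads could not be recovered for ALDOA, PGK1 and ENO1 in 5637. The code was tested on simulated data. Alternatives were a pseudocount of 0.1, no filter, quantile normalization, median centring, a fixed-sum scale, no trend, voom on recovered reads, each library left out and a replicate block.

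The members and lists were chosen with earlier results of these data known. Named are CBX7, the 10 members, up to 4 called genes with the smallest p per list and line, and the 5 genes nearest in pattern. HIF1A and EPAS1 fall outside this rule. Some genes that the rule picked are left out of the text.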

Additional observations from a re-analysis of the deposited data

Results flagged for a closer look

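In 7 of the 10 genes the change after silencing of CBX7 differed between the lines, by the interaction term of limma over all 12 libraries with adjusted p under 0.05. Written as the log2 change in 786-O minus that in 5637, the difference was -0.5797 for PGK1, -0.4535 for PGAM1, -0.442 for TPI1, -0.3849 for LDHA, -0.3625 for PFKP, -0.3523 for ENO1 and -0.26 for PKM. Such a difference was called for 53.3% of all genes tested. PGAM1 reached it through a rise in 5637 (0.44) with a change near 0 in 786-O (-0.01), and PGK1 through a rise (0.17) and a larger fall (-0.41). The tables were made separately, so line and table cannot be told apart.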

How the results depend on the processing

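Of 267 recomputed member changes, 251 kept their direction and their side of the threshold, 6 lost the call, 4 gained one and 6 turned in sign. Of 170 recomputed differences between lines 163 did so, and of 72 recomputed shares 70. The PGAM1 shares among the 72 could not move. In 5637 the 7 calls held in every fit that tested those genes, and voom, which had reads for 7 members, called 5. In 786-O the number of members called was 3 with no filter on low values, where GAPDH (adjusted p = 0.1045), ENO1 (0.09904) and LDHA (0.06135) missed the limma threshold, and 5 to 7 otherwise, 5 to 7 with a library left out. The signs that turned in 786-O were those of HK2 (0.003646), PGAM1 (0.04371) and PKM (0.02457) with quantile normalization, of PGAM1 without control 1 (0.0199) or silenced library 3 (0.01923), and of HK2 without silenced library 1 (0.00648). With a library left out, the change ran from -0.03195 to 0.00648 for HK2 and from -0.04381 to 0.0199 for PGAM1. Between lines the difference turned for ALDOA with median centring (0.01781) and for HK2 on the fixed-sum scale (-0.005581). With a library left out, the ALDOA difference ran from -0.08668 to 0.07543, turning at 0.03025, 0.04205, 0.07543 and 0.03739, and the ALDOA share in 786-O ran from -0.5564 to 0.1144 percentage points, turning at 0.04105 and 0.1144. The cause was not tested in these cases, none of which passed a test.

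The replicate block was fitted in 786-O only, since the titles of all 5637 controls carry the number 1. Deviations of libraries with the same number correlated at 0.083, 0.077 and 0.057, each library best with its own number, which is a hint from the data and not the design. The block called 7 members and 6723 genes, against 6 and 6736 without it, and PKM passed (-0.1499, adjusted p = 0.0333). ALDOA, with 462 to 631 reads per library in 786-O, was the member least able to show a change of the size seen in the others.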

Other observations

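GAPDH and ACTB often serve as reference genes, and both were lower after silencing in 786-O (limma log2 change -0.26 and -3.27). The ratio of ACTB to GAPDH FPKM was 0.888 to 0.926 in 786-O controls and 0.107 to 0.119 after silencing, and 0.831 to 0.869 and 0.947 to 1.03 in 5637. Set against GAPDH, CBX7 in the silenced 786-O libraries was 0.732 times its control mean, and set against ACTB it was 5.92 times. In 5637 the same ratios were 0.890 and 0.778. The exact two-sided permutation p was 0.1, the smallest possible with 3 against 3 libraries, for all of these but CBX7 to GAPDH in 5637 (0.2).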
